A study of Homo sapiens with 6 samples.

Results

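The miRNAs of the imprinted 14q32 cluster were examined in HK-2 cells with and without aristolochic acid. Members were chosen by name from a list of 44 cluster miRNAs, leaving out probes whose name ends in an asterisk. This gave 53 probes among the 1719 human miRNA probes on each array, since 9 of the miRNAs had a probe for each arm of the hairpin. Of the 53 probes, 3 gave a detected signal on all 6 arrays, 32 on some arrays and 18 on none. Of the 8 members that could be tested, 0 passed the test between treated and control samples after quantile normalization, and the calls depended on how the arrays were scaled.

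The 14q32 cluster lies in the imprinted DLK1-DIO3 region, where the miRNAs are made from the maternal chromosome together with the long non-coding RNAs MEG3 and MEG8, and DLK1, RTL1 and DIO3 are made from the paternal one. It is among the largest miRNA clusters in placental mammals. Its miRNAs are abundant in embryo, placenta and brain and low in most adult epithelia, and in mouse neurons the distal part is induced by activity. A mature miRNA pairs with messenger RNAs mainly through its seed, the short stretch near its 5′ end, so members with different seeds have mostly different targets.

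HK-2 cells derive from human proximal tubule and were made a permanent line with papillomavirus genes, so all samples come from 1 cell line, and aristolochic acid is a plant nephrotoxin that forms DNA adducts. The control group was 3 samples of HK-2 held for 48 h in medium with 0.2% fetal calf serum. The aristolochic acid group was 3 samples held in the same medium for the same time with 5 µg/ml of the compound. For each sample, 500 ng of RNA carried the Cy5 dye on 1 single-colour array. Whether the samples of a group were separate cultures is not stated, so the spread behind each p-value may be technical.

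Summed over detected human probes, signal above background ran from 80088 to 101889 in the controls and from 108515 to 120739 in the treated samples. Background itself ran from 50.6 to 51.8 and from 53.3 to 61.8, so the groups differed in brightness and background without overlap, and treatment and array quality cannot be told apart. Markers of renal epithelium were present, with 8 of 10 on all 6 arrays, while the blood miRNAs miR-451 and miR-150 and the neural miR-124 were on none. Markers of other cell types were also on all 6 arrays: 2 of 6 for blood (miR-142-3p and miR-142-5p), 2 of 4 neural (miR-9 and miR-128), 2 of 4 for muscle (miR-1 and miR-133a), 2 of 4 stromal (miR-145 and miR-214), the endothelial miR-126 and 1 of 5 for pluripotent cells (miR-302b). The marker lists thus do not set the labelled cell type apart from all others. The number of arrays limits the precision of every value.

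The mature sequences that carry the results are shown first, from RefSeq on assembly GRCh38.p14, written 5′ to 3′ with the seed (bases 2 to 8) in capitals. A sequence was found for 52 of the 53 members, and all 52 lie on the plus strand of chromosome 14 over 214 kb. The files name some probes without an arm, and the arm given here is the one now used for that miRNA, which was not checked against the probes' own sequences. The first set holds the 3 members detected on every array, with miR-487a, the cluster's close copy of miR-487b.
miR-494 (miR-494-3p): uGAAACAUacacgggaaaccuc
miR-487b (miR-487b-3p): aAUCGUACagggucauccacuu
miR-487a (miR-487a-3p): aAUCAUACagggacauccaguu
miR-370 (miR-370-3p): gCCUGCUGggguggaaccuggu
The mature miR-494 lies at chr14:101029681-101029702, miR-487b at chr14:101046505-101046526, miR-487a at chr14:101052494-101052515 and miR-370 at chr14:100911186-100911207, the last within the annotated span of MEG8. From miR-487b to miR-487a the substitutions are G5A, U13A and C20G, counted from the 5′ end, and the first falls in the seed.

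The second set holds the 5 members that were detected on every array of 1 group but not of the other.
miR-665: aCCAGGAGgcugaggccccu
miR-379 (miR-379-5p): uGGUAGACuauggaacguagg
miR-323-5p (miR-323a-5p): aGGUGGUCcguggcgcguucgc
miR-382 (miR-382-5p): gAAGUUGUucgugguggauucg
miR-409-3p: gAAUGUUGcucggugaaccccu
These lie at chr14:100875075-100875094 (miR-665), chr14:101022071-101022091 (miR-379), chr14:101025747-101025768 (miR-323-5p), chr14:101054316-101054337 (miR-382) and chr14:101065346-101065367 (miR-409-3p). The 8 members of both sets that were tested have 8 different seeds. Across the 52 members there were 50 different seeds.

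The third set shows the only seeds that members share, in miR-376a with miR-376b and in miR-654-5p with miR-541, beside the closely related miR-376c. The miR-376 family is known for A-to-I editing within the seed in brain.
miR-376c (miR-376c-3p): aACAUAGAggaaauuccacgu
miR-376a (miR-376a-3p): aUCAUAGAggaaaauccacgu
miR-376b (miR-376b-3p): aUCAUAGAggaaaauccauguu
miR-654-5p: uGGUGGGCcgcagaacaugugc
miR-541 (miR-541-3p): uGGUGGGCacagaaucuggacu
From miR-376c to miR-376a the substitutions are A2U and U14A. Of the members with a shared seed, miR-376b was on no array, miR-376a on 2, and miR-654-5p and miR-541 each on 1.

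Most of the cluster was at or near the array background. Detection here is the authors' own: a probe is detected where the deposited table gives it a value after background subtraction. All 6 arrays detected 3 of 53 members (5.66%) against 503 of 1719 human probes (29.3%), and 18 members (34.0%) were on no array against 497 human probes (28.9%). A further 15 members, or 28.3%, were on a single array, against 15.6% of human probes. The 8 members on every array of either group (15.1%) formed the tested set, which held 625 human probes (36.4%). These shares are a description, since the members share a locus and arrays share samples.

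The number of the other 50 members that an array detected varied within both groups. It was 13, 17 and 6 on control arrays 1, 2 and 3, and 2, 16 and 11 on treated arrays 1, 2 and 3. The lowest count was on treated array 1 and the highest on control array 2. Control array 3 lay below treated arrays 2 and 3, so the groups overlapped. Of all 1719 human probes, 51.1%, 54.5% and 37.5% were detected on control arrays 1, 2 and 3. On treated arrays 1, 2 and 3 the shares were 37.6%, 50.8% and 43.0%, so detection varied between arrays over all probes too. Of the 1248 blank spots, 6.09% to 8.01% lay above the same limit on each array, and 32.7% did so on at least 1 array, as did 66.7% of the 24 negative control spots and 64% of the 50 members. On all arrays of 1 group were 0.160% of the blank spots, 8.33% of the negative control spots and 10% of the 50 members. A detection on a single array was therefore not taken as expression. In bulk RNA, fewer cells with a miRNA and less of it per cell cannot be told apart.

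**Figure D1:**
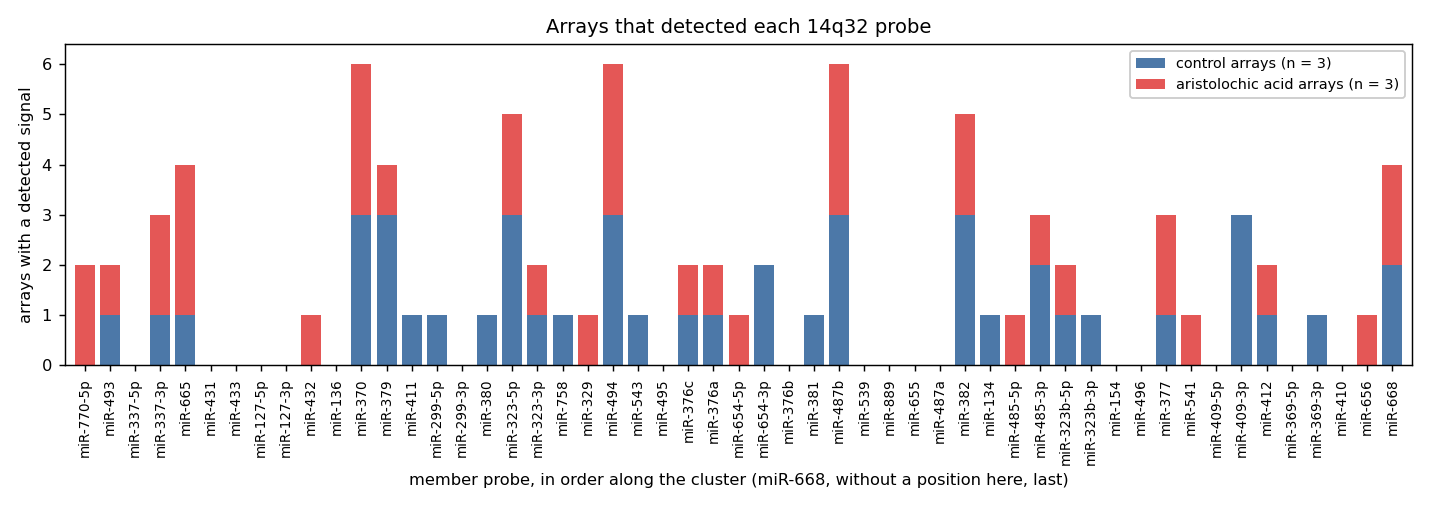
Number of arrays (y axis, out of 6) that detected each of the 53 member probes, in order along the cluster (x axis), with control arrays in blue and treated arrays in red. Only miR-370, miR-494 and miR-487b reach 6, and 18 members have no bar.

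By place in the cluster, the upstream group near RTL1 had 11 probes, with 1 on all 6 arrays and 6 on none. It includes miR-127, miR-431, miR-433 and miR-136, which lie antisense to the RTL1 transcript and in mouse cut it. All 5 of their chosen probes, including both arms of miR-127, were on no array. Outside the chosen members, the asterisk-named probes miR-431* and miR-136* were on 5 and 3 arrays. The other miRNA within the RTL1 span, miR-432, was on treated array 3 alone, with an intensity 0.167 above that array's lowest kept value. MiR-337-3p was on 3 arrays and miR-493 on 2, each in both groups, and miR-337-5p was on none.

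The distal group from miR-379 to miR-656, the part with activity-induced members in mouse neurons, had 41 probes placed in it, including miR-668. Of these 2 were on all 6 arrays and 12 on none. Undetected were miR-299-3p, miR-495, miR-376b, miR-539, miR-889, miR-655, miR-487a, miR-154, miR-496, miR-409-5p, miR-369-5p and miR-410. On control array 1 alone were miR-758, miR-543, miR-381 and miR-323b-3p. On control array 2 alone were miR-411, miR-299-5p, miR-380, miR-369-3p and miR-134, the last a regulator of the kinase Limk1 in rat dendrites. On treated array 2 alone were miR-329, miR-485-5p and miR-656, and on treated array 3 alone were miR-654-5p and miR-541.

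Of the 27 untested members on at least 1 array, 15 were on a single array and are named above, and the others were on 2 to 4 arrays. MiR-668 was on 4 arrays, 2 of each group. On 3 arrays were miR-485-3p and miR-377, the latter a miRNA raised in kidney mesangial cells under high glucose. On 2 arrays were miR-323-3p, miR-376c, miR-376a, miR-654-3p, miR-323b-5p and miR-412, and of these miR-323-3p, miR-376c and miR-376a were each on control array 2 and treated array 2. MiR-654-3p was on 2 control arrays, and miR-770-5p, which lies within MEG3, was on 2 treated arrays. For 4 of the 9 miRNAs with a probe for both arms, each arm was on at least 1 array, though not always the same one. MiR-323 was among them, with its 5p arm on 5 arrays and its 3p arm on 2.

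The 18 members on no array averaged 1.97 to 5.24 below the lowest kept intensity. The 32 members on 1 to 5 arrays averaged from 3.93 below it to 3.48 above it, with a median of -1.53. The 3 on all arrays averaged 13.4 (miR-370), 30.9 (miR-487b) and 280.4 (miR-494) above it. Between the partly detected members and the 3 constant ones there was thus a gap. Just outside the tested set, miR-668 averaged 1.30 above the limit and miR-493 0.159 above it, and just inside, miR-379 averaged 0.011 and miR-409-3p 0.250 above it.

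**Figure D2:**
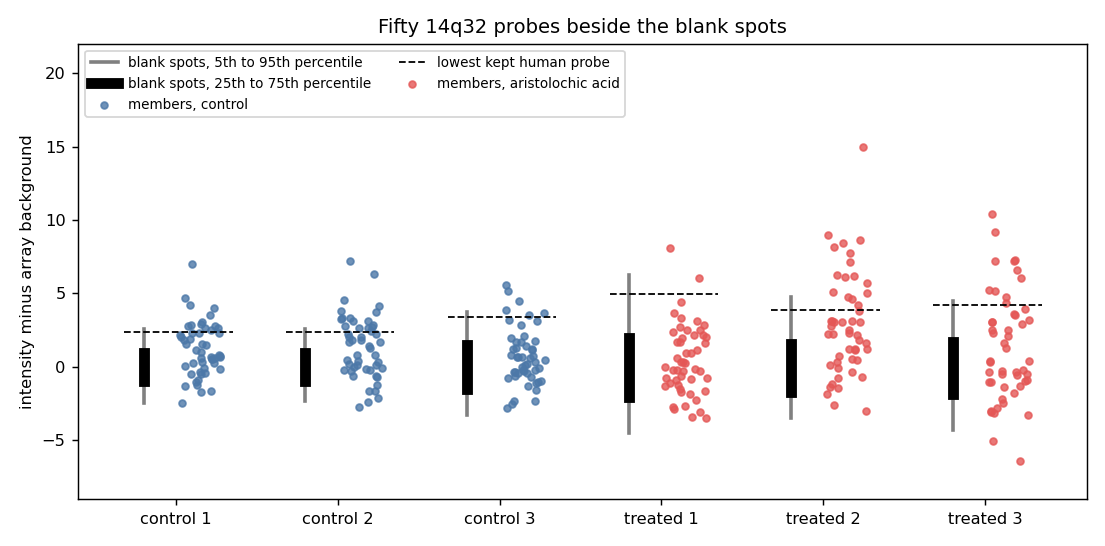
Intensity minus the array background (y axis, array units) for the 50 members other than miR-494, miR-487b and miR-370 on each array (x axis), beside the blank spots of that array. Thick and thin bars span the 25th to 75th and 5th to 95th percentiles of the blank spots, and dashed lines mark the lowest kept human probe. Most members lie within the span of the blank spots, and the lines are higher on treated arrays.

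GC content of the mature sequence overlapped between members on all, some and no arrays. It was 45.5% to 68.2% for the 3 members on all arrays, 23.8% to 72.7% with a median of 50% for the 31 with a sequence on some arrays, and 27.3% to 59.1% with a median of 43.2% for the 18 on none. MiR-370, at 68.2%, is the richest in G and C of the 3. Some close neighbours along the locus differed in detection and others did not. The hairpin of miR-1193, a probe outside the chosen members, is 338 bases from that of miR-494, and both were on all 6 arrays. MiR-487b, on all 6 arrays, has its hairpin 461 bases from that of miR-381, on 1 array, and 783 bases from that of miR-539, on none. At a longer distance, the hairpin of miR-370 is 26356 bases from that of miR-136, on none.

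MiR-494, known for targeting ATF3 in mouse kidney ischaemia, was far above background on every array. Its background-subtracted intensity was 266, 221 and 215 on the control arrays and 326, 356 and 319 on the treated arrays. Every treated array was brighter than every control array, at 334 ± 19.1 against 234 ± 27.8 (SD, n = 3 per group). The same held for 53.7% of the 503 probes detected on all 6 arrays, and 53.9% had groups without overlap in either direction. The ratio of geometric means was 1.43-fold, and the median over the 503 probes was 1.37-fold, with 57.9% of them shifted less than miR-494. On a scaled intensity, set so that the median of those 503 probes is 25 on every array, miR-494 was 407, 358 and 376 in the controls and 371, 382 and 380 in the treated samples. The groups overlapped on this scale, at 380.4 ± 24.9 against 378 ± 6.01, or 0.994-fold.

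MiR-370, a miRNA reported to act on lipid metabolism genes in liver cells, was nearer the detection limit. Its background-subtracted intensity was 14.9, 15.5 and 10.9 on the control arrays and 17.5, 23.3 and 19.3 on the treated arrays. The treated arrays were all brighter for this probe too, at 20.02 ± 2.95 against 13.8 ± 2.46 (SD, n = 3), or 1.46-fold. Scaled to the common median, the values were 22.8, 25.004 and 19.1 against 19.9, 25 and 23.0. These overlapped, with a ratio of 1.02.

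MiR-487b was the member of the 3 that shifted least. Its background-subtracted intensity was 35.6, 30.9 and 28.3 on the control arrays and 28.9, 44.7 and 38.0 on the treated arrays, so that treated array 1 lay among the controls. The ratio of geometric means was 1.16-fold, and 18.7% of the 503 probes shifted less. On the scaled intensity it was 54.5, 49.9 and 49.6 in the controls and 32.8, 48.1 and 45.2 in the treated samples. All treated values were below all control values on this scale, as for 14.1% of the 503 probes (22.9% had no overlap in either direction), and the ratio was 0.809. In limma on the scaled values the adjusted p was 0.502. The size of the difference depended on treated array 1. On the quantile-normalized log2 scale, where the groups overlapped, it was -0.083 with all arrays and -0.017 without that array. On the scaled intensity, treated arrays 2 and 3, at 48.1 and 45.2, were still below all controls. The ratio of miR-494 to miR-487b within an array, looked at after the values were seen and so given with no test, was 7.48, 7.18 and 7.58 in the controls and 11.3, 7.95 and 8.41 in the treated samples. The probe for miR-487a, 3 substitutions away, was below the limit on all 6 arrays.

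**Figure D3:**
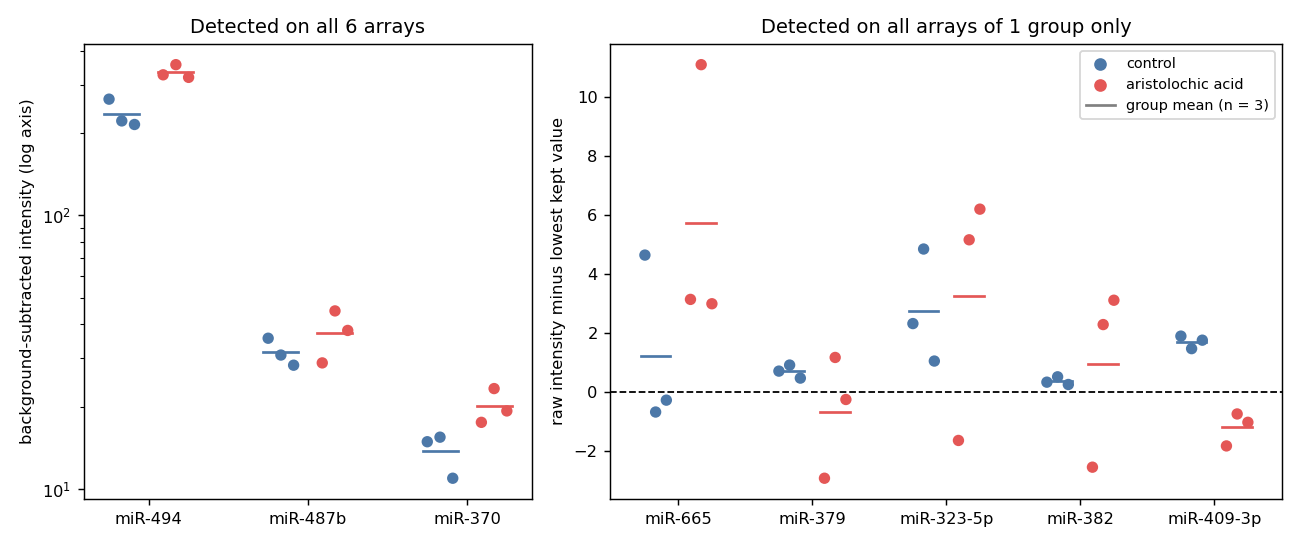
Values of the 8 tested members on each array, with control in blue, aristolochic acid in red and bars at group means (n = 3). Left, background-subtracted intensity on a log axis for miR-494, miR-487b and miR-370; right, raw intensity minus the array's lowest kept value for the other 5, with the limit dashed at 0. Treated points of miR-494 and miR-370 all lie above the control points before scaling, and only miR-409-3p has all control points above the limit and all treated points below it.

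The other 5 tested members were within a few units of the limit, and their raw intensity is given as its distance from the lowest kept value of the same array. MiR-665 was the sole member tested through the treated group, at 4.64, -0.683 and -0.280 on the control arrays and 3.14, 11.1 and 2.99 on the treated arrays. Control array 1 lay above 2 of the treated arrays, so the groups overlapped. MiR-323-5p was at 2.32, 4.85 and 1.05 in the controls and -1.65, 5.16 and 6.20 in the treated samples. Its groups overlapped, with treated array 1 the lowest of all.

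MiR-379, the first miRNA of the distal group, was at 0.705, 0.910 and 0.467 on the control arrays and -2.93, 1.17 and -0.257 on the treated arrays. MiR-382, studied in human renal epithelial cells exposed to TGF-beta, was at 0.330, 0.511 and 0.251 and at -2.55, 2.28 and 3.11. In both, the controls were close together and the treated samples lay on either side of them. MiR-409-3p was at 1.89, 1.47 and 1.75 on the control arrays and -1.83, -0.748 and -1.03 on the treated arrays, and was thus detected on every control array and on no treated array. Its groups did not overlap on this distance, which follows from those detection calls and is no separate result. The limit itself stood 2.34 to 3.42 above background in the controls and 3.85 to 4.96 above it in the treated samples. In raw intensity all treated values of miR-409-3p were above all control values, at means of 60.8 and 55.5. After background subtraction all were below them, at means of 3.13 and 4.41.

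In the fit across all 625 tested probes, the question was which members differed after 48 h of aristolochic acid. With limma on quantile-normalized log2 intensity, 0 of 8 members passed an adjusted p of 0.05. Among all tested probes 0.96% were called, a rate at which fewer than 1 of 8 members would be. An unadjusted limma p under 0.05 was found for 0 of the 8, against 94 of the 625 tested probes. The log2 differences (treated minus control) were above 0 for 4 members and below 0 for 4, with a median of -0.003 against -0.01 over all tested probes. An offset added in the background correction shrinks these differences for dim probes.

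The intervals show what sizes remained possible on this normalized log2 scale. For miR-494 the limma difference was -0.01 (SE 0.046, 95% interval -0.12 to 0.10, adjusted p = 0.951). For miR-370 it was 0.001 (SE 0.036, interval -0.09 to 0.09, limma adjusted p = 0.987). MiR-487b was at -0.08 (SE 0.063, interval -0.23 to 0.07, limma adjusted p = 0.585). MiR-494 and miR-370 thus had intervals within about 0.12 of 0, and that of miR-487b reached further below 0. These intervals hold for the quantile scale alone. In limma on the scaled intensity they were wider, at -0.33 to 0.31 for miR-494 and -0.37 to 0.41 for miR-370. For miR-487b the interval there was -0.72 to 0.11.

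Among the dim members, miR-665 had the highest difference, 0.09 (SE 0.053, interval -0.03 to 0.22, limma adjusted p = 0.461). MiR-409-3p was at -0.06 (SE 0.033, interval -0.14 to 0.01), and its limma adjusted p of 0.406 was the lowest of the 8. It was also the sole one of the 8 tested members whose groups did not overlap after normalization. All its treated values were lower, as for 10.7% of all tested probes (19.6% had no overlap in either direction). It entered the test through the control group alone, where it had to be above the limit, so the filter favours a lower treated value, and nothing is read from this. Since it was below the limit on every treated array, its level there is only a bound. For miR-379, miR-323-5p and miR-382 the differences were -0.02, 0.002 and 0.02, with limma adjusted p of 0.747, 0.986 and 0.803.

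The scaling between arrays decided both the direction and the calls of several members. Without scaling, miR-494, miR-370 and miR-665 were higher in the treated samples, at log2 differences of 0.44, 0.17 and 0.19 with limma adjusted p of 0.0049, 0.0184 and 0.0285. In that fit 49.6% of all tested probes were called higher and their median difference was 0.14, so relative to the median miR-494 was above it and miR-370 and miR-665 close to it. With scaling on the 75th percentile, miR-379 and miR-409-3p were lower, at -0.19 and -0.23 with limma adjusted p of 0.0258 and 0.0214. There 33.1% of all tested probes were called lower, with a median of -0.11. Both members were tested through the control group alone, and miR-665 through the treated group alone, so the filter favours the direction of these 3 calls. MiR-494 was 0.27 above 0 with median scaling and 0.19 above 0 with the 75th percentile, with limma adjusted p of 0.0574 and 0.0501. Those fits used the same offset. On the scaled intensity, which has none, the log2 difference of miR-494 was -0.0085.

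**Figure D4:**
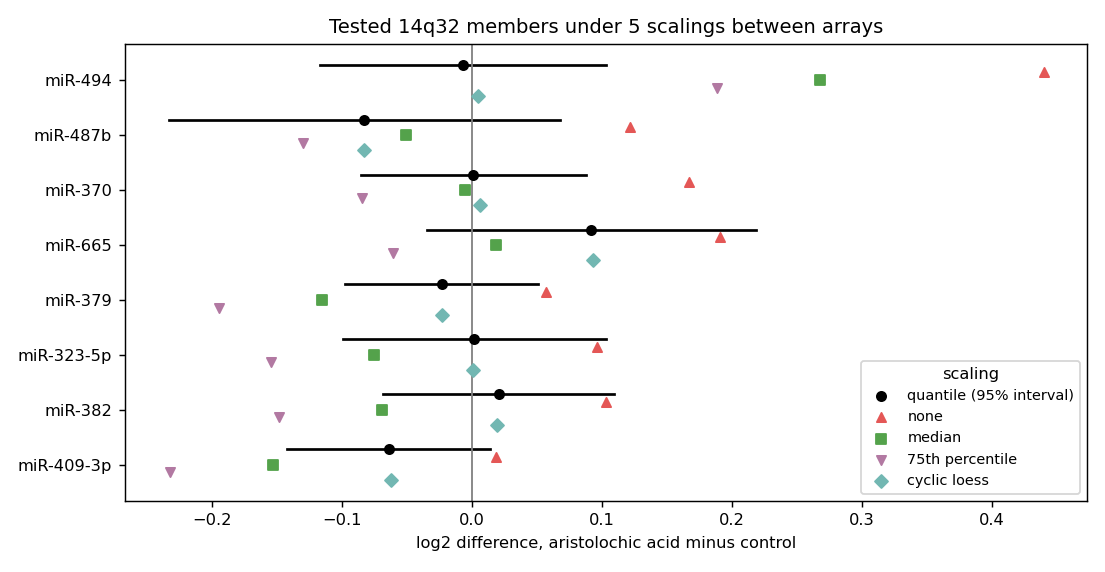
Log2 difference, aristolochic acid minus control (x axis), of the 8 tested members (y axis) under 5 scalings between arrays. Black points and lines are the quantile-normalized values with 95% intervals, which all cross 0, and miR-494 moves from -0.01 to 0.44 without scaling.

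With no filter on dim probes, the fit held 1717 human probes and all 53 members. None of the members was called by limma, against 0.466% of all probes. In that fit 1 of the 53 members had an unadjusted limma p under 0.05, against 144 of the 1717 probes. It was miR-770-5p, the miRNA hosted by MEG3, at a log2 difference of 0.09 with a limma adjusted p of 0.556.

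Detected members held 0.351% ± 0.00351 of the background-subtracted signal of detected human probes in the controls and 0.400% ± 0.0530 in the treated samples (SD, n = 3). By array the share was 0.355%, 0.349% and 0.350% in the controls and 0.341%, 0.444% and 0.415% in the treated samples. Treated array 1 lay below all controls and the other two above them, so the groups overlapped. Probes differ in brightness per molecule, so this is a share of signal, and miR-494 made up 66.4% to 84.4% of the members' part.

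Related probes outside the chosen members were also compared. Of 11 asterisk-named probes for the minor arms of the same miRNAs, 0 were on all 6 arrays, 5 were on none, and 1 was tested. That one, miR-431*, was on 5 arrays, whereas the probe for the main arm, miR-431, was on none. The scaled intensity of miR-431* was 12.03 ± 0.356 in the controls and 7.26 ± 1.98 in the treated samples. It was tested through the control group alone, so the filter favours a lower treated value, and nothing is read from this. Among 6 further probes for 14q32 miRNAs, miR-1193 and miR-2392 were on all 6 arrays. The MIR1193 gene lies 338 bases beyond the end of MIR494, and its scaled intensity was 13.1 ± 6.86 against 9.55 ± 1.76, with overlap. MiR-2392 was at 131 ± 2.85 in the controls and 109 ± 19.0 in the treated samples. All its treated values were below all control values, as for 14.1% of the 503 probes detected on all 6 arrays. Groups without overlap in either direction were found for 22.9% of them.

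Imprinted miRNAs of other loci, some of them known as imprinted from mouse, were listed for comparison. Of 8 such probes 3 were on all 6 arrays and 0 on none. MiR-675, processed from the maternally expressed H19 RNA, was at a scaled intensity of 48.6 ± 1.89 in the controls and 48.3 ± 3.52 in the treated samples. With 8 probes chosen by hand, this is a description of these probes.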

How the data were processed

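Values came from 6 deposited tables of 3136 spots, with 1 array in each. The authors gave, per the file headers, raw intensity, the same less background, a control-spot average with its coefficient of variation, and a global normalization of intensity. The variation coefficient, a ratio in the deposited tables, was left out. The deposited intensities show that the subtracted background was 1 constant per array and that the global normalization set the median detected human probe to 25. The deposited value table of the series held the same globally normalized intensities. The array platform, scanner and software are not given in the sources used here.

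Raw deposited intensity went through normexp (offset 50), log2 and quantile normalization over the human probes. Those detected throughout either group were tested with limma 3.58.1 in R 4.3.3, 2-sided, with group as the only term, and p-values were adjusted by Benjamini-Hochberg over all 625 tested probes. The threshold was 0.05. The steps were tested on simulated data. The 3 members given with background-subtracted values were those detected on all arrays, and every tested member is named. The members, lists and tests were chosen with earlier results of these data known. The replicate numbers were checked for pairing. Deviations from the group mean of same-numbered arrays correlated at -0.139, -0.178 and 0.0077, and those of different-numbered arrays at -0.0999 to 0.2105. The numbers thus gave no sign of pairing, but deviations from a mean of 3 arrays cannot exclude it. Alternatives changed the scaling, background correction, filter, variance model, weights, replicate block and threshold, and left out each array in turn. Sequences and gene positions are from RefSeq tables of GRCh38.p14.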

Additional observations from a re-analysis of the deposited data

How the results depend on the processing

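Among the 8 tested members, 0 were called under quantile normalization, median scaling, cyclic loess, an offset of 16, no filter, trend and robust variances, array weights, a threshold of 0.1, or without any 1 array. The scaled intensity, the authors' globally normalized intensity and the filter on all 6 arrays held only miR-494, miR-487b and miR-370, with 0 of these 3 called. Without scaling 3 were called, and with the 75th percentile 2. The count over all tested probes, 6, became 310 without scaling, 37 with median scaling, 245 with the 75th percentile (38 higher and 207 lower), 1 with the authors' values, 10 with trend and robust variances and 14 at a threshold of 0.1. It was 3 to 5 with 1 array left out, with the lowest count without control array 1 or treated array 2. The members' median difference became 0.112 without scaling, -0.0597 with median scaling, -0.139 with the 75th percentile and, over those 3 members alone, -0.143 with the authors' values. It ran from -0.0218 to 0.0120 with 1 array left out. The median over all probes moved by more than 0.1 without scaling (0.14), with the 75th percentile (-0.11) and with the authors' values (-0.21). Directions turned as follows, and the cause was not tested. Without scaling, miR-379 was at 0.0568, miR-409-3p at 0.0189, miR-487b at 0.121 and miR-494 at 0.440. With median scaling, miR-323-5p was at -0.0754, miR-370 at -0.0051, miR-382 at -0.0688 and miR-494 at 0.268. With the 75th percentile, miR-323-5p was at -0.155, miR-370 at -0.0844, miR-382 at -0.148, miR-494 at 0.188 and miR-665 at -0.0606. MiR-494 was at 0.0049 with cyclic loess, and miR-370 was at -0.113 with the authors' values and -0.0045 with array weights. With 1 array left out, miR-323-5p ran from -0.0247 to 0.0386, miR-370 from -0.0176 to 0.0208, miR-382 from -0.0019 to 0.0430 and miR-494 from -0.0410 to 0.0278, all with 0 calls. MiR-487b, at -0.083, kept its direction but ran from -0.140 without treated array 2 to -0.0172 without treated array 1. MiR-379, miR-409-3p and miR-665 kept theirs too, at -0.0321 to -0.0077, -0.0795 to -0.0444 and 0.0548 to 0.135. Over single members and all these settings, 98 values kept the direction with no call, 27 turned and 4 kept it with a new call.

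With the replicate number as a block, 4 probes and 0 members were called, and the lowest adjusted p of a member in limma was 0.566. The same-numbered arrays gave no sign of pairing, and the block changed no call of a member. The count of detected members, 8, was 35 for any array, 3 for all 6 arrays, 4 above the mean plus 2 SD of the negative control spots and 3 above the mean plus 3 SD of the blank spots. It was 8 to 11 with 1 array left out. Signal over background therefore limits all members but miR-494, miR-487b and miR-370, which all 3 of these rules kept on 6 arrays. The members' share of signal in the controls, 0.351%, was 0.378% over all members with negative values at 0, and 0.377% over a total without miR-21, an alternative chosen after seeing the data.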
